A study of Mus with 4 samples.

Results

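Laminin chains were followed on the arrays of a murine podocyte cell line that overexpressed the active form of OASIS, the transcription factor encoded by Creb3l1. The 9 genes examined were Lama1 to Lama5, Lamb1 to Lamb3 and Lamc1, out of 26893 named genes on the array. Each was taken with every probe whose gene symbol in the deposited table is one of these names, which gave 27 probes. All 9 symbols matched the RefSeq gene of the same Entrez identifier. The set was taken by gene name, and was proposed with earlier results of these data known.

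The comparison was between 2 samples transduced with lentivirus carrying the active N-terminal part of OASIS in the pCSII-EF vector and 2 control samples whose lentivirus carried the fluorescent protein Venus. All 4 came from 1 immortalised line, differentiated for 10 to 14 days at 37 °C without interferon-γ. They were exposed to virus for 24 h in the presence of polybrene, at 200 to 500 infectious units per cell, and RNA was taken 48 h after the vectors were added. The control thus shares the virus and the handling but not a transcription factor. Nothing in the sample descriptions says that the replicates were separate cultures, so that the p-values measure the spread between these samples, which may be technical.

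One-colour Agilent arrays were used, 1 for each sample, and the 4 shared a slide and a scan. Between 33938 and 34418 of 59305 spots were well above background, none was saturated, and 31598 of 56605 probes could be tested. The number of arrays limits the precision, and with 2 arrays per group the smallest two-sided p of an exact permutation test is 0.33. Of 10 podocyte marker genes, 7 had a probe well above background on all 4 arrays, but Ptpro had none on any array, and no Nphs1 (nephrin) probe reached it on all 4. Markers of other cell types were also seen on all 4 arrays, 1 of 5 for endothelium, 2 of 4 for mesangial and stromal cells, 3 of 4 for the proximal tubule and 2 of 3 for leukocytes, and their part in the results was not tested. Summed marker intensity overlapped between the groups for mesangial and stromal cells (3554 and 4502 with Venus, 3011 and 3746 with OASIS), for the proximal tubule (19973 and 29077, against 21122 and 36441) and for leukocytes, and was 41.0 and 35.4 against 45.5 and 44.5 for endothelium. Such sums rest on a few bright probes. By the brightest probe, 1 of 3 tested mesangial and stromal markers (log2 fold change 5.22) was higher with OASIS past both limits described below. So were 1 of 3 tested proximal tubule markers (1.62) and 2 of 7 tested podocyte markers (up to 4.62), where 6.21% of all genes tested were. In these lists 0 were lower past both limits by the brightest probe, where 1.85% of all genes were. The mesangial and stromal values reached down to -0.82. In that list 1 marker was lower at a limma adjusted p under 0.1 alone, where 18.1% of all genes were. Of the podocyte markers, 1 had another probe lower past both limits. The probe for Creb3l1 read 0.71 and 0.72 with Venus and 0.61 and 0.49 with OASIS. Its position relative to the introduced part of the gene was not analysed here, so that it does not check the labels.

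Laminins are secreted trimers of an alpha, a beta and a gamma chain, joined in the endoplasmic reticulum before export. Outside the cell they polymerise into the sheet on which basement membranes are built, and the globular end of the alpha chain binds integrins and dystroglycan on the cell surface. In the kidney, podocytes and endothelial cells lay down the glomerular basement membrane. Its early form holds trimers with the Lama1 and Lamb1 chains, and its mature form holds the trimer of the Lama5, Lamb2 and Lamc1 chains.

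The chains that carry these glomerular trimers were the ones detected. Lama1, Lama5, Lamb1, Lamb2 and Lamc1 had at least 1 probe well above background on all 4 arrays, 10 probes in total. Lama2 had 1 probe well above background on the Venus arrays only. Lamb3 had 1 probe well above background on a single OASIS array, and no probe of Lama3 or Lama4 was on any array. Over all 27 probes, 14 were not well above background on any array. The test took in probes with such a signal on both Venus arrays or on both OASIS arrays, which held for 12 probes of 6 genes and left out 15 probes. Values below are log2 intensities relative to the 75th percentile of the array, and a probe's brightness depends on its own binding as well as on the RNA, so that levels of different probes are not ranked.

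**Figure D1:**
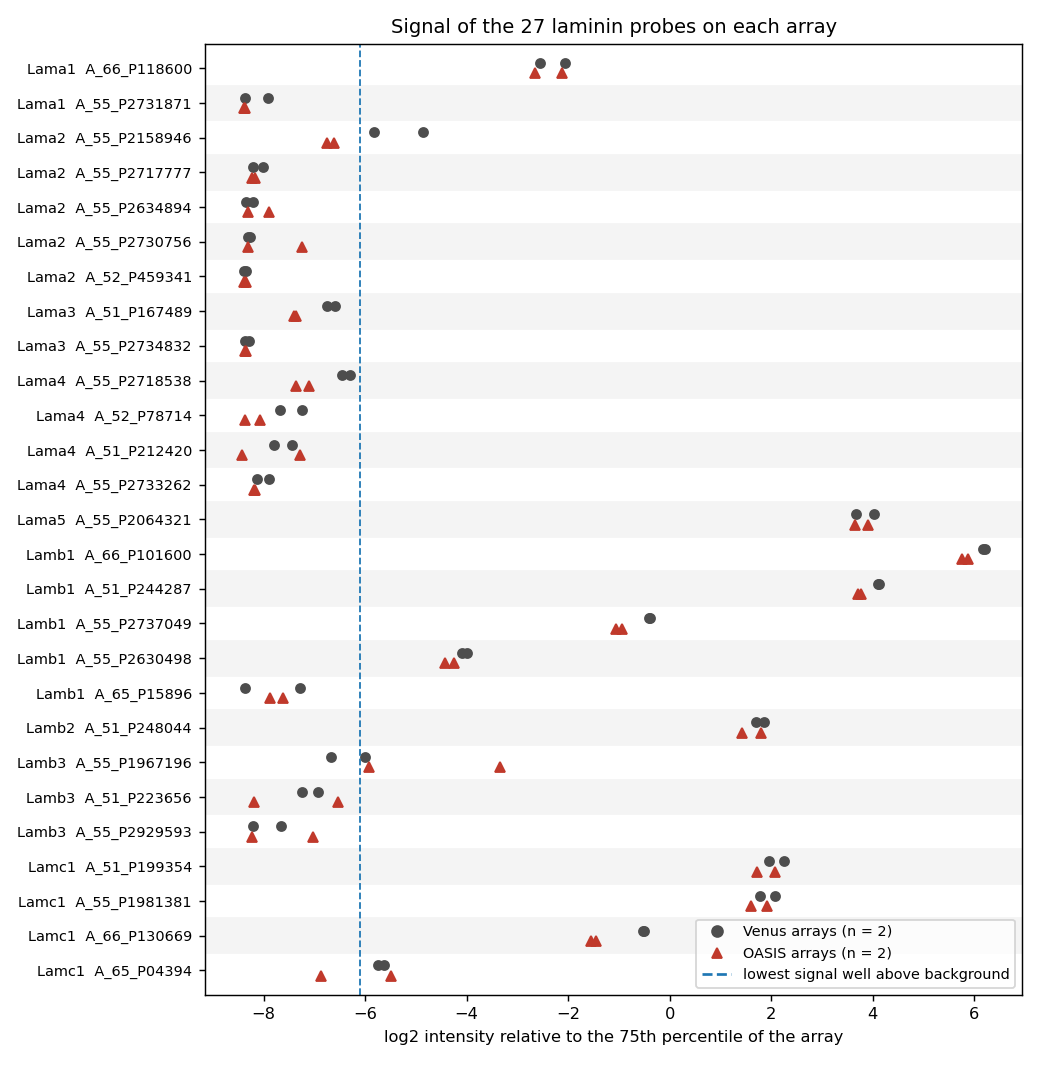
Log2 intensity relative to the 75th percentile of the array for each of the 27 laminin probes, with circles for the 2 Venus arrays and triangles for the 2 OASIS arrays; the dashed line is the highest, over the 4 arrays, of the lowest signal well above background. Probes of Lama3 and Lama4 lie to the left of the line on every array, whereas Lama5, Lamb2 and the brightest Lamb1 and Lamc1 probes lie far to its right.

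No laminin probe rose past the limits that the study set for its arrays, a fold over 2.0 or under 0.5 with an adjusted p under 0.1. Of the 12 probes tested with limma, 0 were higher by these limits, where 5.89% of all probes tested were, and 1 was lower, where 2.47% were. The lower one is a Lama2 probe that entered the test through the Venus arrays alone. Its fold down to the background limit is 1.73 by the group means, without allowance for the spread between arrays. At an unadjusted p under 0.05, 0 laminin probes were higher and 5 lower, where 18.3% and 22.4% of all probes were. The methods' t-test with Benjamini-Hochberg adjustment called 0 probes higher and 0 lower, and 1.74% and 0.554% of all probes. Without the limit on the fold, 5 probes of Lama2, Lamb1 and Lamc1 were lower at an adjusted p under 0.1, where 19.7% of all probes were. That count was smaller with the methods' t-test and with any array but OASIS replicate 2 left out, as given in the section on processing.

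Among the 10 probes well above background on all 4 arrays, which a high level in a single group cannot have selected, each had a lower mean with OASIS, where 58.1% of all such probes did. Both OASIS arrays lay below both Venus arrays for 5 of the 10, against 39.8% of all such probes, and 4 had an adjusted p under 0.1, against 19.6%. This count of 4 was smaller with any array but OASIS replicate 2 left out. Over all 12 probes tested, which include those admitted through 1 group, 12 were lower in mean (57.5% of all probes tested) and 6 had both OASIS arrays below both Venus arrays (39.4%), and nothing is read from these counts. The median log2 fold change of the 10 was -0.25, beside -0.071 over all such probes. The 10 probes read 5 genes and are not independent of each other. For the means of Lama1, Lama5 and Lamb2 the direction is not settled, since it turned without 1 array, as given with each gene.

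**Figure D2:**
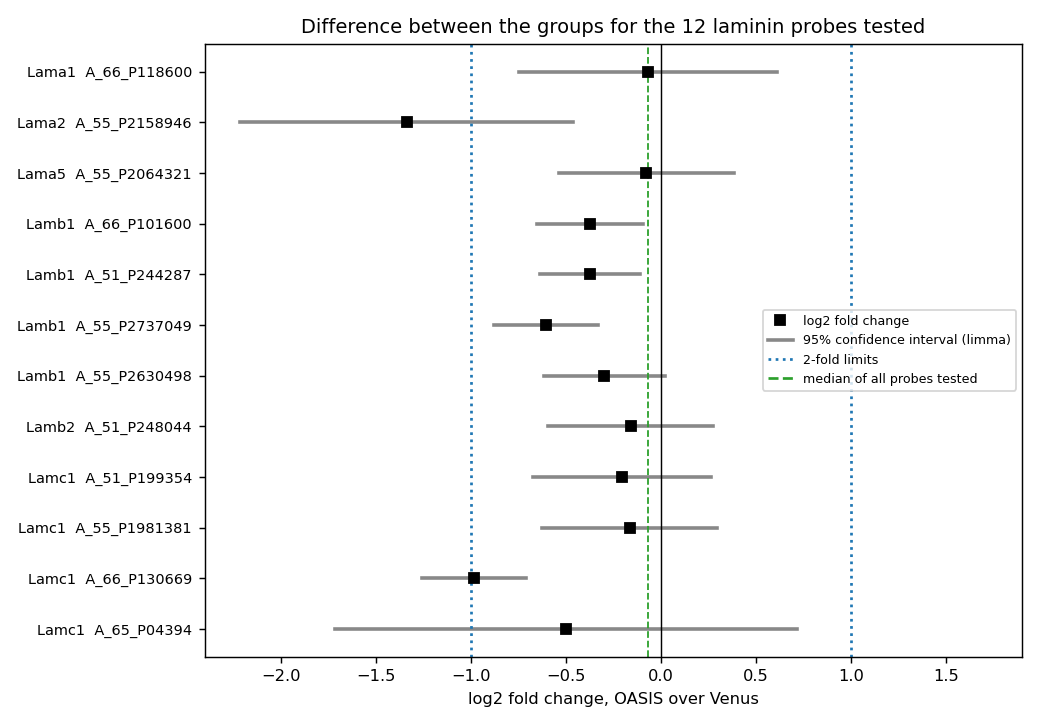
Log2 fold change, OASIS over Venus, for the 12 laminin probes tested, as squares with their 95% confidence intervals from limma (2 arrays per group); dotted lines mark the 2-fold limits and the dashed line the median of all probes tested. The intervals of 3 Lamb1 probes, of Lamc1 probe A_66_P130669 and of the Lama2 probe lie below 0, and the others include it.

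Lamb1, the beta chain of embryonic and many adult basement membranes, on chromosome 12, was lower with OASIS by several probes. Its brightest probe, A_66_P101600, read 6.18 and 6.22 with Venus and 5.77 and 5.88 with OASIS. The OASIS arrays thus lay below both Venus arrays, and the gap between the groups was larger than the spread within either. The log2 fold change was -0.37 (standard error, SE, 0.11; adjusted p = 0.065 by limma), which puts the signal with OASIS at 77.1% of that with Venus, with a 95% confidence interval of 63.6% to 93.5%. In RNA from whole cultures, fewer cells expressing a gene and less of its RNA per cell cannot be told apart.

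A second probe for the same RefSeq transcript of Lamb1, A_51_P244287, gave nearly the same size. It read 4.12 and 4.11 with Venus and 3.72 and 3.77 with OASIS, a log2 fold change of -0.37 (SE 0.099, adjusted p = 0.0573 by limma). The third, A_55_P2737049, read -0.40 and -0.38 with Venus and -0.94 and -1.05 with OASIS. Its difference was the largest of the gene's tested probes, -0.60 (SE 0.10, adjusted p = 0.0225 by limma), or 65.8% of the Venus signal. The deposited table places this probe in band qA2 and the brightest in band qA3.

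A dimmer probe annotated to an Ensembl transcript of Lamb1, A_55_P2630498, read -4.10 and -3.99 with Venus and -4.44 and -4.25 with OASIS. These arrays do not overlap either, but the log2 fold change of -0.30 had a limma adjusted p of 0.139. The remaining Lamb1 probe, A_65_P15896, was not well above background on any array. None of the 4 tested probes reached the 2-fold limit, and they ranged from -0.60 to -0.30 in log2 fold change. After normexp the dimmer probe A_55_P2630498 was -0.099 (limma adjusted p = 0.476). The mean over these 4 probes, fitted as 1 value per gene, gave -0.41 (limma adjusted p = 0.0378). With 1 array left out, the brightest probe stayed between -0.43 and -0.32, with adjusted p-values of 0.0844 to 0.311. Without Venus replicate 1 or Venus replicate 2, no Lamb1 probe had an adjusted p under 0.1. With all 4 arrays, the brightest probe missed that limit without a filter on dim probes (limma adjusted p = 0.108) and by the methods' t-test (adjusted p = 0.132).

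Lamc1 encodes the gamma chain shared by most laminin trimers, and its probes on chromosome 1 in band qG3 disagreed. The brightest, A_51_P199354, annotated to a GenBank entry, read 1.96 and 2.25 with Venus and 1.72 and 2.07 with OASIS, so that the groups overlap. Its log2 fold change was -0.20 (SE 0.18, adjusted p = 0.442 by limma). A_55_P1981381, annotated to the RefSeq transcript, behaved alike, at 1.77 and 2.08 with Venus and 1.60 and 1.92 with OASIS. Its log2 fold change of -0.17 (SE 0.17, adjusted p = 0.527 by limma) carries a 95% confidence interval from -0.63 to 0.29, which holds neither a 2-fold rise nor a 2-fold fall. Single arrays moved both values, to between -0.38 and -0.031 for A_51_P199354 and between -0.32 and -0.0091 for A_55_P1981381, with the smallest sizes without OASIS replicate 1 and the largest without OASIS replicate 2.

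A_66_P130669, annotated to the same RefSeq transcript of Lamc1, read -0.50 and -0.53 with Venus and -1.55 and -1.45 with OASIS. The groups stood far apart for this probe, with 0.11 as the wider gap between arrays of a group. Its log2 fold change was -0.98 (SE 0.10, adjusted p = 0.00838 by limma), or 50.5% of the Venus signal, just short of the 2-fold limit. It passed that limit after scaling the arrays to their median, at -1.01, and without OASIS replicate 2, at -1.04. It was further from it after normexp background correction, at -0.85, without OASIS replicate 1, at -0.93, and without Venus replicate 1, at -0.97.

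The within-array log2 ratio of A_66_P130669 over A_55_P1981381 was -2.28 and -2.61 with Venus and -3.16 and -3.36 with OASIS. The mean difference was -0.82, with both OASIS arrays below both Venus arrays. This pair was chosen after its values were seen, and the exact two-sided permutation p of 0.33, the smallest possible (0.833 after Benjamini-Hochberg adjustment over the 5 ratios computed), adds nothing to that description. Which part or form of the Lamc1 transcript each probe reads was not analysed here. The dimmest Lamc1 probe, A_65_P04394, read -5.62 and -5.74 with Venus and -6.86 and -5.50 with OASIS, with OASIS replicate 1 not well above background. Its log2 fold change was -0.50 (limma adjusted p = 0.471), but 0.18 without OASIS replicate 1 and -1.18 without OASIS replicate 2, so that single arrays decide it. The mean over the 4 tested Lamc1 probes, fitted as 1 value per gene, gave -0.46 (limma adjusted p = 0.157).

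**Figure D3:**
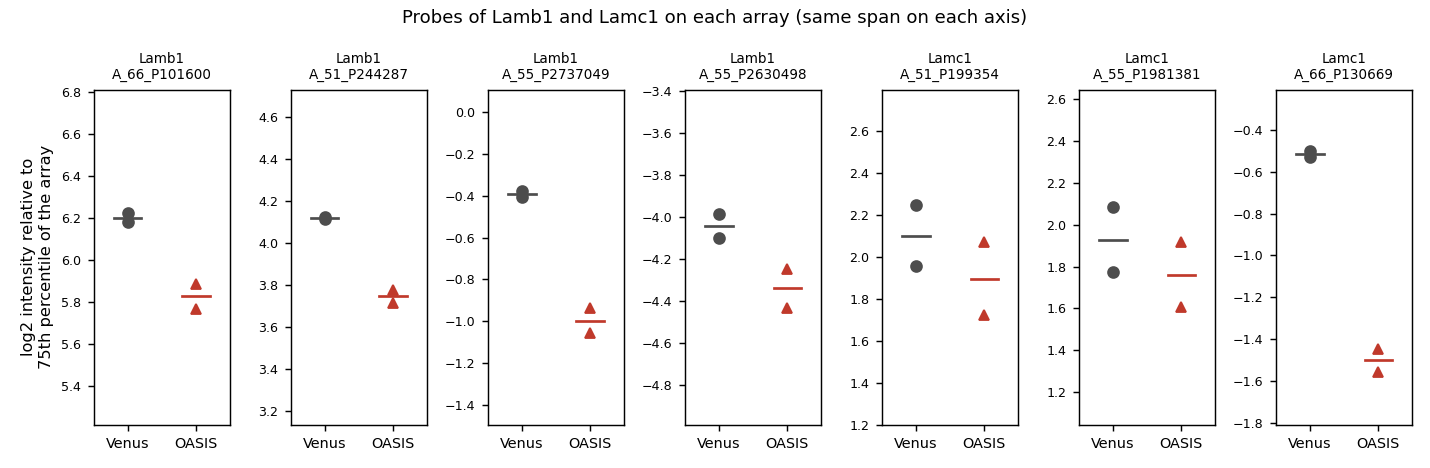
Log2 intensity relative to the 75th percentile of the array for the 4 Lamb1 and 3 Lamc1 probes well above background on all 4 arrays, with circles for Venus, triangles for OASIS, bars for the group means and the same span on each axis. The groups are apart for each Lamb1 probe and for Lamc1 probe A_66_P130669, and overlap for the other 2 Lamc1 probes.

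Lama5, the alpha chain of the mature glomerular basement membrane, lies on chromosome 2 in band qH4 and has 1 probe, A_55_P2064321. It read 3.68 and 4.03 with Venus and 3.65 and 3.91 with OASIS. The ranges overlap, and the log2 fold change of -0.077 (SE 0.17, adjusted p = 0.775 by limma) is smaller than the gap between arrays of either group, 0.35 and 0.26. The 95% confidence interval, 69.0% to 130% of the Venus signal, holds no 2-fold change. Without Venus replicate 2 the value was 0.099 and without OASIS replicate 1 it was 0.055.

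Lamb2, the beta chain of the mature glomerular membrane, whose loss causes congenital nephrotic syndrome, is on chromosome 9 in band qF2. Its single probe, A_51_P248044, read 1.70 and 1.85 with Venus and 1.43 and 1.80 with OASIS. The OASIS arrays differed from each other by more than the groups did, and the log2 fold change was -0.16 (SE 0.16, adjusted p = 0.515 by limma). Its 95% confidence interval ran from 66.2% to 121% of the Venus signal. Without OASIS replicate 1 the value was 0.026.

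Lama1, the alpha chain of the first embryonic basement membranes, is on chromosome 17 in band qE1.1. The probe for its RefSeq transcript, A_66_P118600, read -2.56 and -2.07 with Venus and -2.65 and -2.12 with OASIS. The arrays of a group differed by up to 0.54, far more than the difference between groups of -0.068 (SE 0.26, adjusted p = 0.867 by limma). Its interval was the widest among the probes seen on all 4 arrays, from 59.6% to 153% of the Venus signal. The value was 0.18 without Venus replicate 2 and 0.20 without OASIS replicate 1. The other Lama1 probe was not well above background on any array.

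Lama2, the alpha chain best known from muscle and peripheral nerve, was the 1 laminin gene past both limits. Its probe A_55_P2158946, on chromosome 10 in band qA4, read -4.87 and -5.82 with Venus and -6.75 and -6.62 with OASIS, where it was not well above background. The OASIS arrays lay below both Venus arrays, which were themselves 0.95 apart. The fitted log2 fold change was -1.34 (SE 0.33, adjusted p = 0.0496 by limma). Because the OASIS level is not well above background, the measured statement is that Lama2 was at least 1.73-fold lower. This does not reach the 2-fold limit. For it the OASIS level was raised, on each array, to the dimmest signal that still counted as well above background. The probe was admitted to the test through the Venus arrays alone, so that its fall is in part set by that filter. The call was lost after normexp background correction, with a log2 fold change of -0.20 (limma adjusted p = 0.287), without a filter on dim probes (limma adjusted p = 0.169) and with the methods' t-test (adjusted p = 0.249). It was also lost without Venus replicate 1, at -0.86 (limma adjusted p = 0.0823). Without OASIS replicate 1 the value was -1.27 (limma adjusted p = 0.151), and without OASIS replicate 2 it was -1.41 (limma adjusted p = 0.124). The call held without Venus replicate 2, at -1.82 (limma adjusted p = 0.0197). The other 4 Lama2 probes were not well above background on any array.

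Lama3 and Lamb3 are chains of the epidermal trimer that anchors hemidesmosomes, and Lama4 is a chain of vessel walls. The Lama3 probe A_51_P167489 read -6.59 and -6.75 with Venus and -7.36 and -7.41 with OASIS, and the brightest Lama4 probe, A_55_P2718538, -6.45 and -6.30 against -7.10 and -7.35. Each of these signals lay below the lowest one well above background, between -6.15 and -6.10 on the 4 arrays. No level or fold is given for them.

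Lamb3 was uneven between the OASIS arrays. Its probe A_55_P1967196, on chromosome 1 in band qH6, read -5.99 and -6.67 with Venus, -3.35 on OASIS replicate 1 and -5.93 on OASIS replicate 2. Only OASIS replicate 1 was well above background, 2.58 above the other array of its group. The other 2 Lamb3 probes were not well above background on any array. With both OASIS arrays kept, the first probe was not tested, and without a filter on dim probes its limma adjusted p was 0.489. Without OASIS replicate 2 it entered the test through that single bright array and passed both limits (limma adjusted p = 0.0296), but neither Venus array was well above background and no fold is given.

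Log2 ratios within an array were taken for alternative chains (Lamb1 and Lamb2, Lama1 and Lama5) and for beta chains over Lamc1. With 2 arrays per group they are descriptions. The Lamb1 over Lamb2 ratio, by the brightest probe of each, was 4.48 and 4.37 with Venus and 4.34 and 4.08 with OASIS. It was lower by 0.21 on average with the groups apart (exact two-sided permutation p = 0.33, the smallest possible). The nearest arrays of the groups read 4.37 and 4.34, and the OASIS arrays differed from each other by more than the groups did. For Lamb1 over Lamc1 the difference was -0.17, with overlapping groups (exact permutation p = 0.667). Lamb2 over Lamc1 differed by 0.044 and Lama1 over Lama5 by 0.0084, both with overlapping groups (exact permutation p = 1). After Benjamini-Hochberg adjustment over the 5 ratios computed, these p-values lay between 0.833 and 1. The ratio of Lama3 to Lamb3 was not computed, since neither gene had a tested probe.

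Lamc3 encodes a gamma chain outside the set. It read -4.55 and -4.00 with Venus and -5.08 and -4.89 with OASIS. Its groups are apart, with a log2 fold change of -0.71 (SE 0.21, adjusted p = 0.0752 by limma) that is short of the 2-fold limit. It was -0.24 after normexp (limma adjusted p = 0.136), and without a filter on dim probes the limma adjusted p was 0.208. The adjusted p was also above 0.1 on the authors' scaled values (0.101), by the methods' t-test (0.277) and with any array but Venus replicate 1 left out (0.133 to 0.252).

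Genes that meet laminins outside the cell were listed as receptors, basement membrane partners and enzymes of dystroglycan glycosylation, and were described by the brightest tested probe of each gene. Of the 9 receptors, 8 were tested, 1 was higher by both limits, where 6.21% of all genes tested were, and 0 were lower, where 1.85% were. At an adjusted p under 0.1 alone, 1 was higher and 1 lower, where 18.6% and 18.1% of all genes were. At an unadjusted p under 0.05, 1 was higher and 2 lower, where 20% and 20.9% of all genes were. The methods' t-test called 0 in either direction, and 2.05% of all genes higher and 0.404% lower. Their median log2 fold change was -0.089, beside -0.056 over all genes tested. The gene that rose was Itgb4, the integrin chain of hemidesmosomes, from -3.10 and -3.36 with Venus to -1.42 and -1.91 with OASIS, a log2 fold change of 1.56 (SE 0.21, adjusted p = 0.013 by limma).

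Itga6, the alpha partner of Itgb4, had 4 probes well above background on all 4 arrays, of which 3 were lower in mean and 1 higher. The 3 had log2 fold changes of -0.74, -0.70 (the brightest, limma adjusted p = 0.0226) and -0.16. The higher one, A_55_P1958840, had 1.50 (limma adjusted p = 0.0064). A further probe entered the test through the Venus arrays alone and was 1.28-fold lower by the group means, taken down to the background limit. Itga3 and Itgb1 form the integrin by which podocytes hold laminin. By its brightest probe, Itga3 had a log2 fold change of -0.045 (SE 0.13, adjusted p = 0.819 by limma). Its other probe, A_51_P230405, also well above background on all 4 arrays, gave -0.22 (limma adjusted p = 0.379) with overlapping groups. The brightest Itgb1 probe had 0.031 (SE 0.11, adjusted p = 0.861 by limma), which turned to -0.031 without OASIS replicate 2 and to -0.020 without Venus replicate 1. The other tested Itgb1 probe, A_66_P113059, also well above background on all 4 arrays, read 4.95 and 5.01 with Venus and 4.48 and 4.49 with OASIS, a log2 fold change of -0.49 (limma adjusted p = 0.0316). Dag1, the dystroglycan core protein, had -0.31 (limma adjusted p = 0.103). Of 3 tested Itga1 probes, a dimmer one rose by 1.34 (limma adjusted p = 0.0211) while the other 2 gave -0.078, the brightest, and -0.060. After normexp the first was 0.89, under the 2-fold limit.

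**Figure D4:**
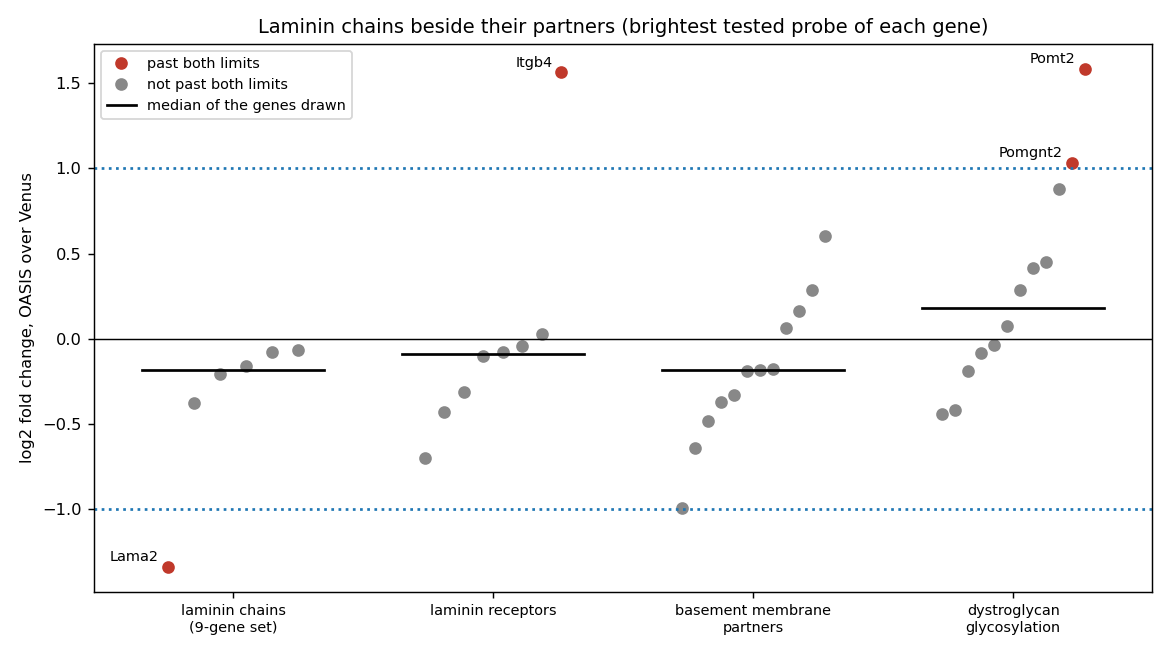
Log2 fold change, OASIS over Venus, of each tested gene by its brightest probe in the laminin chains, laminin receptors, basement membrane partners and dystroglycan glycosylation enzymes; red points are past both limits, black bars are medians of the genes drawn and dotted lines are the 2-fold limits. Named points are Lama2, which is lower, and Itgb4, Pomt2 and Pomgnt2, which are higher.

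Of 13 basement membrane partners, 12 were tested and 0 passed both limits in either direction by limma, where 6.21% of genes were higher and 1.85% lower. At an unadjusted p under 0.05, 0 were higher and 2 lower, against the shares of 20% and 20.9% of all genes given above, and the methods' t-test called 0. Their median was -0.19, and their log2 fold changes ran from -0.99 to 0.61. The lowest was Ntn4, a netrin that binds laminin and can break up its network, at -0.14 and -0.096 with Venus and -1.17 and -1.05 with OASIS (log2 fold change -0.99, limma adjusted p = 0.00865). It passed both limits after scaling to the median (-1.02), on the authors' scaled values (-1.01), without Venus replicate 1 (-1.02) and without OASIS replicate 2 (-1.05). Nid1, the nidogen that links the gamma chain to type IV collagen, had -0.48 by its brightest probe (limma adjusted p = 0.143) and -1.14 by a dimmer one (limma adjusted p = 0.062). The dimmer probe passed both limits but was well above background on both Venus arrays and 1 OASIS array, and the call was lost after normexp (-0.30, limma adjusted p = 0.103), without a filter on dim probes (limma adjusted p = 0.195) and without either Venus array or OASIS replicate 2. The log2 fold change was -0.37 for Nid2, 0.29 for Hspg2 (perlecan) and -0.33 for Agrn (agrin), with limma adjusted p-values of 0.334, 0.198 and 0.13. Dimmer probes of these genes, each well above background on all 4 arrays, gave -0.43 for Nid2 (limma adjusted p = 0.0471), -0.011 for Hspg2 (limma adjusted p = 0.97) and -0.81 for Agrn (limma adjusted p = 0.0117).

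All 12 genes of dystroglycan glycosylation, which build the sugar chain that laminin binds, were tested. Of these, 2 were higher by both limits and 0 lower, where 6.21% and 1.85% of all genes were. At an unadjusted p under 0.05, 4 were higher and 2 lower, against 20% and 20.9% of all genes, and the methods' t-test called 1 higher and 0 lower, against 2.05% and 0.404%. Their median log2 fold change was 0.18. Pomt2, which starts the O-mannose chain with Pomt1, rose from -2.74 and -2.59 to -1.07 and -1.08, a log2 fold change of 1.58 (SE 0.11, adjusted p = 0.00441 by limma). A dimmer Pomt2 probe, also well above background on all 4 arrays, gave 0.66 (limma adjusted p = 0.186). Pomt1 itself had -0.44 (limma adjusted p = 0.0457), within the fold limit. Pomgnt2, which extends that chain, rose from 3.23 and 3.07 to 4.29 and 4.08, a log2 fold change of 1.03 (SE 0.13, adjusted p = 0.0115 by limma). It was 0.99 after quantile normalization, 0.96 without Venus replicate 2 and 0.93 without OASIS replicate 1, and so below the limit in each case, and by the methods' t-test its adjusted p was 0.113. B3galnt2, the next enzyme in line, had 0.88 by its brightest probe (limma adjusted p = 0.0185) and 1.02 by another, which passed but was 0.67 after normexp, 0.95 without Venus replicate 2 and 0.94 without OASIS replicate 1, and missed the adjusted p by the methods' t-test (0.108). A further probe of the gene, well above background on all 4 arrays, gave -0.37 (limma adjusted p = 0.244).

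**Figure D5:**
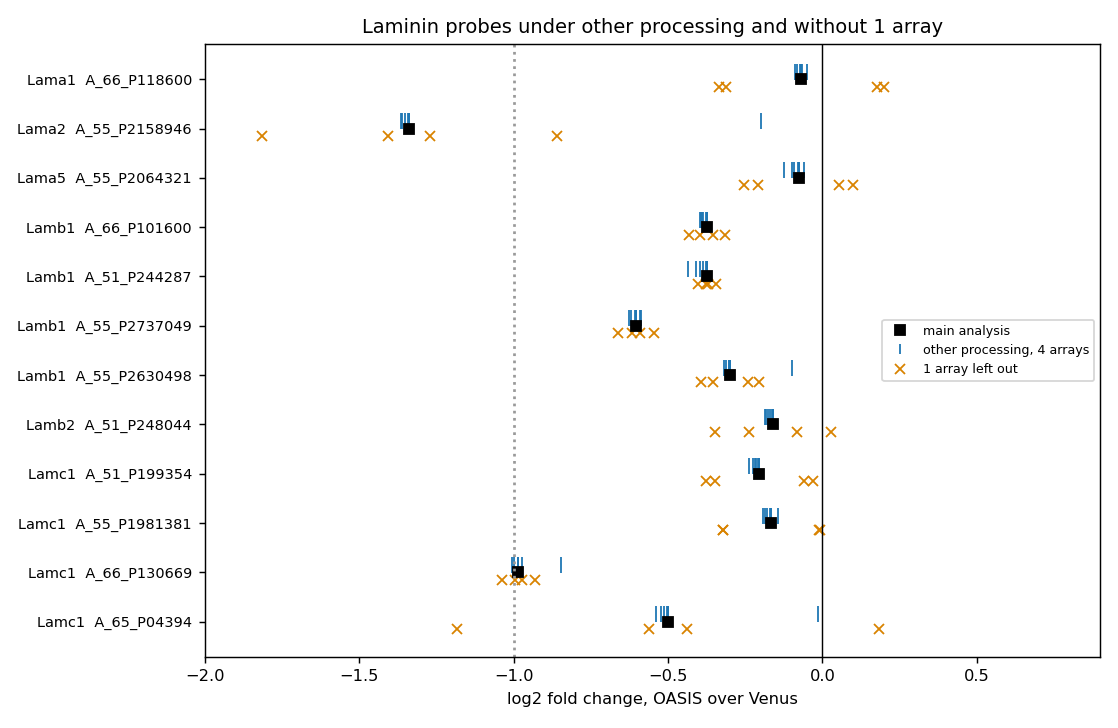
Log2 fold change, OASIS over Venus, of the 12 laminin probes tested, with squares for the main analysis, blue ticks for other processing of all 4 arrays and crosses for fits without 1 array. The Lamb1 probes and Lamc1 probe A_66_P130669 stay below 0 in each fit drawn, whereas crosses of Lama1, Lama5, Lamb2 and Lamc1 probe A_65_P04394 fall on both sides of 0.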

How the data were processed

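Total RNA of the 4 samples was labelled with Cy3 and read with Agilent Feature Extraction 12.1.0.3, per the file headers. The authors deposited background-corrected intensity per spot and a table of scaled intensity, which is the former times 1 factor per array (0.663 to 0.698), with a detection score from 0 to 2 per spot whose meaning is not stated. Gene symbols and bands come from that table. The scores were not used. The array design names another build than the RefSeq table used here, so that no coordinates are given.

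Corrected intensities were put on the log2 scale and the 75th percentile of each array was subtracted. Control and outlier spots were dropped, and replicate spots were averaged per probe. A probe counted as well above background when at least 0.5 of its spots were. Differences were fitted with limma 3.58.1 in R 4.3.3 (lmFit, eBayes), with Benjamini-Hochberg adjustment over 31598 probes. The methods give limits on fold and q for the arrays, which were kept, without naming the test, and the plain t-test they name for comparing a pair of groups in general is called the methods' t-test. The brightest tested probe represented each of 16318 genes. A slide effect could not be fitted with 1 slide, and promoter and protein sequences were not analysed here. Some genes are not reported here.

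Genes and lists were chosen with earlier results of these data known. All laminin probes are given. From the partner lists, genes with a probe past both limits are named, and Itga3, Itgb1, Dag1, Lamc3, Ntn4, Nid1, Nid2, Hspg2, Agrn and Pomt1 were added after their values were seen.

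Other settings tried were a quantile normalization, the median in place of the percentile, normexp (offset 50, on the median spot intensity), the scaled intensities as deposited, omission of the filter, a filter that asks for all 4 arrays, keeping outlier spots, the methods' t-test, an intensity trend, a limit of 0.05 on the adjusted p, averaging each gene's tested probes, a block for the replicate number, and omission of each array in turn.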

Additional observations from a re-analysis of the deposited data

How the results depend on the processing

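The count of laminin probes past both limits and higher with OASIS was 0 under each alternative on 4 arrays, and the count of genes by the brightest probe was 0 as well; without 1 array both were 0 to 1, the 1 being Lamb3 without OASIS replicate 2. The count of probes lower, 1 in the main analysis, was 2 after scaling to the median and 0 after normexp, without a filter on dim probes, with the methods' t-test and with a filter that asks for all 4 arrays, and 0 to 2 without 1 array. The count of genes lower, also 1, was 0 under the same last 4 settings and 0 to 1 without 1 array. The last of these leaves out the Lama2 probe, and the cause of the other changes was not tested. The count of probes lower at the adjusted p alone, 5, was 2 with the methods' t-test, 3 at an adjusted p under 0.05, 4 after normexp and with the filter on all 4 arrays, and 2 to 5 without 1 array. Without a filter on dim probes it was 5, with dim Lama3 and Lama4 probes in place of Lama2 and the brightest Lamb1 probe. This count and the ratio of 2 Lamc1 probes were chosen after seeing the data.

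No laminin probe changed direction under an alternative on 4 arrays. Without 1 array, log2 fold changes lay between -0.34 and 0.20 for Lama1, between -0.25 and 0.099 for Lama5, between -0.35 and 0.026 for Lamb2, and between -1.18 and 0.18 for Lamc1 probe A_65_P04394. Among the partners, by the brightest probe, they lay between -0.031 and 0.092 for Itgb1, between -0.21 and 0.051 for Itga1 and between -0.17 and 0.075 for Itga3. These fits take the spread of a group with 1 array from the other group.

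With the replicate number as a block, 1 laminin probe was lower by both limits and 6 at the adjusted p alone, in place of 5, the added one being Lamb1 probe A_55_P2630498 (adjusted p = 0.0926). Differences between replicates 1 and 2 correlated at 0.259 across 31590 probes between the groups, and with 2 pairs the numbers are not taken to pair the samples.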
